A study of Mus musculus with 12 samples.

Results

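The transcripts of 10 genes of the neuronal cytoskeleton were followed in RNA bound to tagged ribosomes and in RNA of the whole tissue. They were the neurofilament subunit genes Nefl, Nefm, Nefh and Ina, the microtubule-associated protein genes Map2, Mapt, Map1a and Map1b, the stathmin gene Stmn2 and the tubulin gene Tubb3. The rows were chosen by symbol, and all 10 were found among the 32531 genes of the count tables. All 10 were also among the 18128 genes that passed the filter on low counts, with a lowest count of 2811 in any library.

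The libraries came from translating ribosome affinity purification (TRAP-seq) of adult mice of the Slc17a6-EGFP/Rpl10a line JX883. In these mice the ribosomal protein Rpl10a carries EGFP in cells that use Slc17a6, the gene of the vesicular glutamate transporter VGLUT2, and antibodies against EGFP pull the tagged polysomes down. The 4 groups were the hypothalamus IP, the hypothalamus input, the midbrain IP and the midbrain input, with 3 libraries each. The IP held RNA from the immunopurified fraction and the input held total RNA of the tissue. Every group carried the transgene, no treatment was named, and an IP from untagged mice is not named in the labels. The sources used here do not give whether a library held 1 animal or several, so the p-values measure the spread between these libraries, which may be partly technical. All IP libraries carried 1 index and all inputs another, so index and fraction cannot be told apart.

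Neurofilaments are the intermediate filaments of neurons. They are built from the light, medium and heavy subunits encoded by Nefl, Nefm and Nefh together with alpha-internexin, encoded by Ina, and they set the calibre of large myelinated axons. Microtubules are polymers of alpha- and beta-tubulin, and Tubb3 encodes the neuron-specific beta-tubulin. Proteins of the MAP and tau families bind along them. The MAP2 protein lies mainly in cell bodies and dendrites, where its mRNA is also carried, while tau, from Mapt, is mainly axonal. Stmn2 encodes a stathmin that binds tubulin dimers and supports axon growth and maintenance.

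Total counts over genes ran between 41909019 and 55148109 per library. Levels are given as CPM, counts relative to library size, after scaling by the trimmed mean of M values (TMM). Slc17a6 had 3489, 1122 and 1743 CPM in the hypothalamus IP against 518, 218 and 311 CPM in the hypothalamus input, and 3955, 1864 and 2394 CPM in the midbrain IP against 1236, 501 and 589 CPM in the midbrain input. It rose in the IP by 2.60 in the hypothalamus (SE 0.49, adjusted p = 0.00184) and by 1.82 in the midbrain (SE 0.48, adjusted p = 0.0116) on the log2 scale. The tissue labels were checked with Hcrt, the orexin gene of hypothalamic neurons, chosen with values known. Hcrt had 42.9 to 106 CPM in the hypothalamus IP and 101 to 182 CPM in the hypothalamus input. It had at most 0.106 CPM in the midbrain IP and 1.66 CPM in the midbrain input. Pmch, at 65.6 to 215 CPM in the hypothalamus input and at most 4.99 CPM in the midbrain input, did not overlap either. En1 had 1.07 to 1.33 CPM in the hypothalamus input and 5.01 to 7.13 CPM in the midbrain input. Slc6a3, a dopamine neuron gene, had 38.8, 5.01 and 9.67 CPM in the hypothalamus input against 75.3, 35.2 and 33.7 CPM in the midbrain input. For Slc6a3 the inputs of the regions thus overlapped. Summed astrocyte markers were at 111 to 262 CPM in the hypothalamus IP against 800 to 1817 CPM in the input, and at 177 to 279 CPM in the midbrain IP against 1036 to 1954 CPM in the input. All 8 astrocyte markers and all 8 oligodendrocyte markers fell in the IP of both regions, as did all 3 markers of GABAergic neurons. All 5 oligodendrocyte precursor markers and all 6 microglial markers fell too, and 4 of 5 endothelial markers did. In the hypothalamus IP 1 microglial and 2 endothelial markers were at 0 in every library. The part of these shifts in the results was not tested. Rn45s, a ribosomal RNA gene, made up 12.3% of the hypothalamus IP replicate 1 and 12.5% of the midbrain IP replicate 1, against 5.21% to 6.85% in the other IPs and 2.57% to 3.97% in the inputs. The replicate 1 libraries are therefore left out below wherever that changes a call.

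Promoter sequences are shown for the 3 genes that passed the test in the IP of both regions and had a promoter window in the RefSeq table. Of the 10 genes, 5 had such a window (Map2, Map1a, Map1b, Ina and Tubb3), which runs 250 bases upstream and 50 downstream of the gene's start on GRCm38.p6, the build called mm10 elsewhere. The stretches below lie ahead of the start in both RefSeq and GENCODE and are written 5′ to 3′ on the plus strand, which is the coding strand of all 3 genes. Capitals mark the GC box GGGCGG on either strand, a motif of many promoters without a TATA box. The Map2 stretch is chr1:66175079-66175272, the Map1a stretch is chr2:121289352-121289599 and the Ina stretch is chr19:47014431-47014680.
Map2: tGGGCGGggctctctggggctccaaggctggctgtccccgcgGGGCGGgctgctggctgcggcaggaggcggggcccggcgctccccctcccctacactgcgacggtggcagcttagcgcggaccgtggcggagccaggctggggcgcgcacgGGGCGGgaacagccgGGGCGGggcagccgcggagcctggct
Map1a: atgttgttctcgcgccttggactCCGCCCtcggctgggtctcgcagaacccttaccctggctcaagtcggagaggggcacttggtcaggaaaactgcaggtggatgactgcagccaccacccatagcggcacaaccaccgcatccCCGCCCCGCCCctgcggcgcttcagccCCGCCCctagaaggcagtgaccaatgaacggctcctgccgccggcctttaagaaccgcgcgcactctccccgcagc
Ina: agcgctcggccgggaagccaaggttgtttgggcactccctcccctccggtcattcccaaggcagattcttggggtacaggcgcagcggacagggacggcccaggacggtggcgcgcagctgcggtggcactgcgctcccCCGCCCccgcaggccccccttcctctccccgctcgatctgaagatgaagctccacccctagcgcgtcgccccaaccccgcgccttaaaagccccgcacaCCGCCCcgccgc
Over the whole 300 bases the GC box occurred 5 times at Map2, 4 times at Map1a, and 2 times each at Map1b, Ina and Tubb3. Matches may overlap, as a pair does at Map1a. Of all 32851 windows, 35.7% held at least 1 match. The G and C content was 77.7% at Map2, 65.7% at Map1a and at Map1b, 71.7% at Ina and 67.3% at Tubb3, against a median of 52.7% over all windows. The letters TATAAA, searched on both strands, were found in 13.6% of all windows and among the 5 genes at Map1b, with 1 match. A motif match is a description of these letters only. Map2 and Map1a fell in the IP of both regions and Ina rose, so genes of either direction held the motif.

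The first question was how each gene stood in ribosome-bound RNA of the tagged cells relative to the whole tissue. Together 5 of the 10 genes passed in each region, beside 33.8% of all genes in the hypothalamus and 33.9% in the midbrain. In the hypothalamus Ina, Nefl and Stmn2 rose in the IP and Map2 and Map1a fell, while the other 5 genes did not pass the test. In the midbrain Ina and Stmn2 rose and Map2, Map1a and Nefh fell, and 5 did not pass. Map2 showed the largest change among the 10 genes in either region. Differences were tested with edgeR's quasi-likelihood F test over all genes, and a call needed a Benjamini-Hochberg adjusted p under 0.05. Among all genes tested in the hypothalamus 14.2% rose and 19.6% fell, and in the midbrain 14.0% rose and 19.9% fell. Counts of 3 higher and 2 lower of 10 in the hypothalamus, and 2 higher and 3 lower in the midbrain, are too few to set these genes apart from that background. The median log2 fold change of the 10 genes was 0.38 in the hypothalamus, against -0.08 over all genes, and -0.16 in the midbrain, against -0.05 over all genes.

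**Figure D1:**
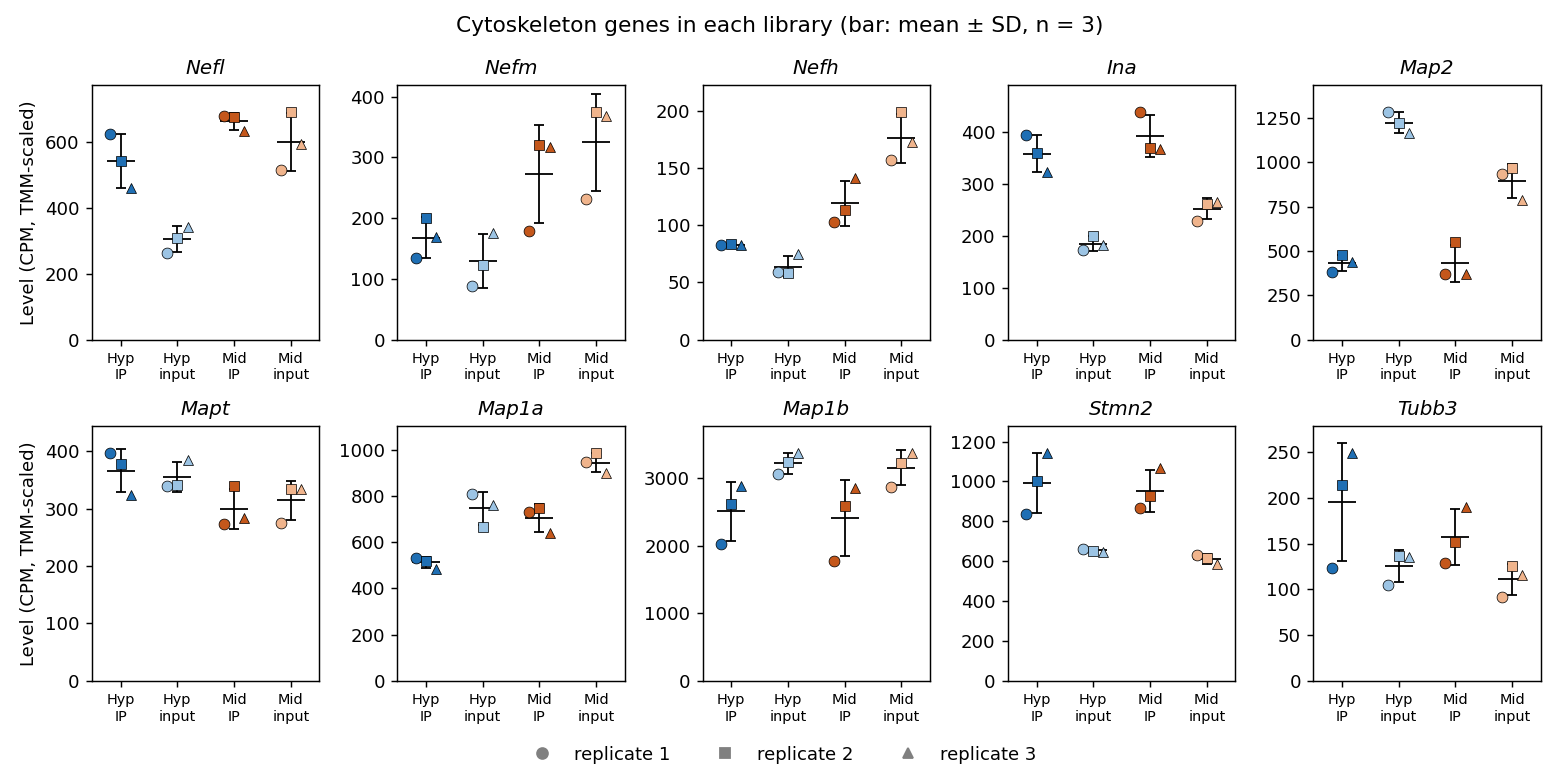
Level of each of the 10 genes in every library, in TMM-scaled CPM on a linear axis from 0, with a symbol per replicate and a black bar for the mean ± SD (n = 3) of each group. Map2 lay between 367 and 550.1 CPM in the 6 IP libraries, below all 6 inputs at 787 to 1282 CPM, while Ina and Stmn2 lay higher in the IP of each region.

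Nefl encodes the light subunit, on which the filament core depends. It lies on chr14 at 68083863 to 68089095, plus strand (mm10, as are all positions here). It had 624, 543 and 461 CPM in the hypothalamus IP against 263, 309 and 343 CPM in the hypothalamus input. All IP libraries lay above all inputs, and Nefl rose by 0.83 (SE 0.15, adjusted p = 0.00141), 1.78-fold. In the midbrain Nefl had 680.4, 676 and 633 CPM in the IP against 515, 691.5 and 595 CPM in the input. These ranges overlapped, and the difference of 0.14 on the log2 scale (SE 0.15, adjusted p = 0.500) did not pass.

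Ina encodes alpha-internexin, the subunit that can form filaments on its own and that appears early in neuronal development. It lies on chr19 at 47014698 to 47025327, plus strand. Its levels were 393, 358 and 322 CPM in the hypothalamus IP against 172, 199 and 183 CPM in the hypothalamus input. In the midbrain it had 437, 369 and 367 CPM in the IP against 228, 262 and 265 CPM in the input. No IP library overlapped an input of its region. Ina rose by 0.95 (SE 0.13, adjusted p = 0.00019) in the hypothalamus and by 0.64 (SE 0.13, adjusted p = 0.00252) in the midbrain. Of the 4 neurofilament genes, Ina alone rose in the IP of both regions.

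Nefm encodes the medium subunit and sits next to Nefl on chr14, at 68082590 to 68124846 on the minus strand. It had 134, 200.3 and 169 CPM in the hypothalamus IP against 88.6, 123 and 176 CPM in the hypothalamus input. The midbrain levels were 179, 321 and 317 CPM in the IP against 232, 374 and 367 CPM in the input. IP and input overlapped in both regions, with log2 fold changes of 0.38 (SE 0.29, adjusted p = 0.348) and -0.25 (SE 0.29, adjusted p = 0.541). With single libraries left out they lay between 0.17 (without the hypothalamus input replicate 1) and 0.67 (without the hypothalamus input replicate 3), and between -0.45 (without the midbrain input replicate 1) and -0.02 (without the midbrain IP replicate 1), and did not pass in any of these fits. In each of the 4 groups the replicate 1 library had the lowest Nefm level. With replicate number as a blocking term, the hypothalamic difference was 0.41 (adjusted p = 0.0255). The annotated exons of Nefl and Nefm overlap by 1108 bases on opposite strands, and since the sources used here leave the strand setting of the counting unstated, both counts are uncertain to that extent.

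Nefh encodes the heavy subunit, whose phosphorylated tail is a hallmark of large axons. It lies on chr11 at 4938754 to 4948064, minus strand. Its levels were 82.5, 84.0 and 82.5 CPM in the hypothalamus IP against 59.2, 58.1 and 74.4 CPM in the hypothalamus input. All hypothalamic IP libraries lay above all inputs, yet the difference of 0.38 on the log2 scale (SE 0.15, adjusted p = 0.0801) did not pass without the replicate block; with it the value was 0.39 (adjusted p = 0.0262). In the midbrain Nefh had 103, 113.5 and 141 CPM in the IP against 157, 199 and 173 CPM in the input. There all IP libraries lay below all inputs, and Nefh fell by 0.56 (SE 0.15, adjusted p = 0.0146). This midbrain call was lost without the midbrain IP replicate 1 (-0.47, adjusted p = 0.0586), the midbrain IP replicate 2 (-0.53, adjusted p = 0.0509) or the midbrain input replicate 2 (-0.46, adjusted p = 0.0655).

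Map2 encodes the microtubule-associated protein that stabilises microtubules in dendrites. It lies on chr1 at 66175273 to 66442583, plus strand, and its annotated exons cover 16449 bases, the most of the 10 genes. It had 382, 477 and 437 CPM in the hypothalamus IP against 1282, 1221 and 1165 CPM in the hypothalamus input. In the midbrain it had 367, 550.1 and 372 CPM in the IP against 934, 965 and 787 CPM in the input. The highest IP library lay below the lowest input, across both regions together. Map2 fell by 1.50 (SE 0.16, adjusted p = 5.37e-05) in the hypothalamus, 2.83-fold. It fell by 1.06 (SE 0.16, adjusted p = 0.00052) in the midbrain, 2.08-fold. Both calls held whichever of the 12 libraries was left out, with values between -1.58 and -1.42 in the hypothalamus and between -1.27 and -0.96 in the midbrain. Among all genes tested 20.1% lay below Map2 in the hypothalamic log2 fold change and 25.1% in the midbrain, so a fall of this size was common among genes, while none of the other 9 genes fell as far. The annotated exons of Map2 overlap those of Gm10558 by 124 bases on the opposite strand.

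Map1a and Map1b encode large proteins that are cut into heavy and light chains and bind microtubules and actin; Map1b is used early in axon growth and Map1a mainly in mature neurons. Map1a, on chr2 at 121289600 to 121310832, plus strand, had 534, 519 and 485 CPM in the hypothalamus IP against 810.3, 667 and 764 CPM in the hypothalamus input. The midbrain levels were 733, 750.3 and 638 CPM in the IP against 947, 985 and 902 CPM in the input. The IP lay wholly below the input in both regions, and Map1a fell by 0.54 (SE 0.11, adjusted p = 0.0031) in the hypothalamus and by 0.42 (SE 0.11, adjusted p = 0.0128) in the midbrain. Without the midbrain IP replicate 3 the midbrain value was -0.35 (adjusted p = 0.0543). Map1a exons overlap those of Ppip5k1 by 272 bases on the opposite strand.

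Map1b, on chr13 at 99421446 to 99516540, minus strand, had the highest CPM of the 10 genes in every group. It had 2026, 2626 and 2884 CPM in the hypothalamus IP against 3058, 3237 and 3369 CPM in the hypothalamus input. In the midbrain it had 1775, 2592 and 2859 CPM in the IP against 2878, 3234 and 3369 CPM in the input. All IP libraries lay below all inputs of their region, but the log2 fold changes of -0.36 (SE 0.17, adjusted p = 0.131) and -0.39 (SE 0.17, adjusted p = 0.0994) did not pass. With the replicate block they were -0.38 (adjusted p = 0.0104) and -0.41 (adjusted p = 0.0062). Without replicate 1 in all groups the midbrain value was -0.27 (adjusted p = 0.046), and without the midbrain IP replicate 3 it was -0.53 (adjusted p = 0.0485).

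Mapt encodes tau and lies on chr11 at 104231390 to 104332090, plus strand. It had 396, 378 and 324 CPM in the hypothalamus IP against 339.8, 341 and 385 CPM in the hypothalamus input. Midbrain libraries had 274, 339 and 284 CPM in the IP against 275, 335 and 334 CPM in the input. The groups overlapped in both regions. The log2 fold changes were 0.04 (SE 0.13, adjusted p = 0.836) and -0.07 (SE 0.13, adjusted p = 0.710), the smallest in size of the 10 genes in each region.

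Stmn2 lies on chr3 at 8509360 to 8561606, plus strand. It had 838, 1001 and 1141 CPM in the hypothalamus IP against 661, 652.5 and 649 CPM in the hypothalamus input. The midbrain levels were 865, 926 and 1068 CPM in the IP against 633, 618 and 585 CPM in the input. Every IP library of either region lay above every input, and the inputs were close together, at 654 ± 6.47 CPM in the hypothalamus and 612 ± 24.7 CPM in the midbrain (SD, n = 3 each). Stmn2 rose by 0.60 (SE 0.13, adjusted p = 0.00339) in the hypothalamus and by 0.64 (SE 0.13, adjusted p = 0.00251) in the midbrain. With scaling by library size alone the hypothalamic value was 0.45 (adjusted p = 0.0584); that scaling moved the median of all genes to -0.25 in the hypothalamus and -0.13 in the midbrain.

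Tubb3 lies on chr8 at 123411424 to 123422015, plus strand. It had 123, 213.5 and 248 CPM in the hypothalamus IP against 105, 136 and 135 CPM in the hypothalamus input. In the midbrain it had 129, 152 and 189.6 CPM in the IP against 92.0, 125 and 115 CPM in the input. The hypothalamic IP replicate 1 lay within the range of the inputs, while in the midbrain all IP libraries lay above all inputs. The log2 fold changes of 0.64 (SE 0.24, adjusted p = 0.0582) and 0.50 (SE 0.24, adjusted p = 0.128) did not pass. Both passed without the hypothalamus IP replicate 1 alone, at 0.88 (adjusted p = 0.0052) in the hypothalamus and 0.50 (adjusted p = 0.042) in the midbrain, and without replicate 1 in all groups, at 0.77 (adjusted p = 0.0025) and 0.51 (adjusted p = 0.020). The hypothalamic value also passed without Rn45s in the counts (0.71, adjusted p = 0.0447). With the replicate block they were 0.60 (adjusted p = 0.00313) and 0.49 (adjusted p = 0.00969).

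**Figure D2:**
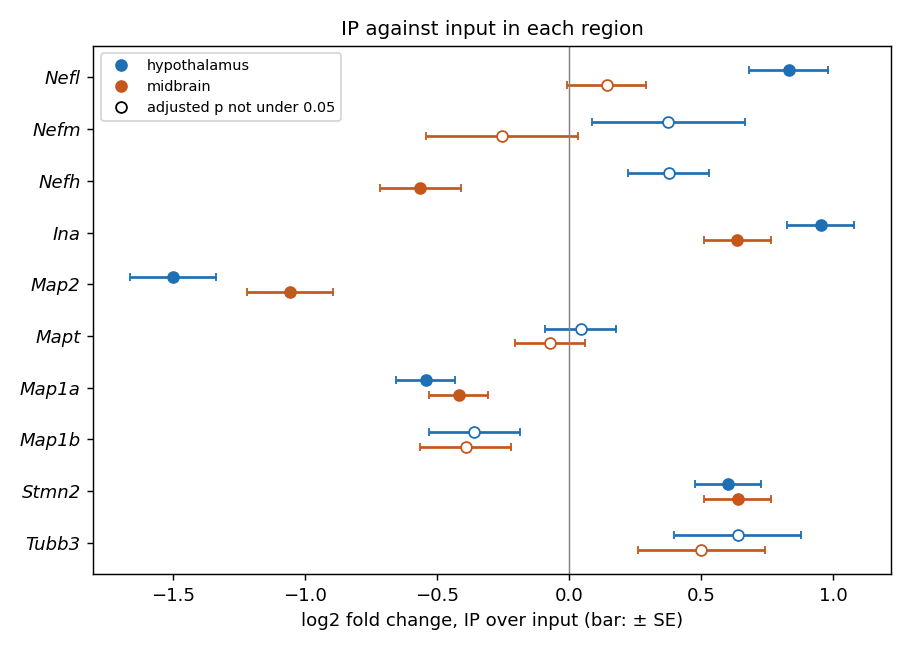
Log2 fold change of IP over input with its SE for each gene in the hypothalamus and the midbrain, filled where the adjusted p was under 0.05. Map2 lay farthest to the left at -1.50 in the hypothalamus and -1.06 in the midbrain, and Ina farthest to the right in the hypothalamus at 0.95.

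The fall of Map2 was also set beside each of the other 9 genes as a ratio of counts within a library, which needs no scaling between libraries. That Map2 fell in the IP was known before these ratios were chosen, and all share its counts, so they are given as a description with no test. Relative to Mapt, the tau gene, there were 0.965, 1.26 and 1.35 Map2 counts per count in the hypothalamus IP against 3.77, 3.58 and 3.03 in the hypothalamus input. In the midbrain there were 1.34, 1.62 and 1.31 Map2 counts per Mapt count in the IP against 3.40, 2.88 and 2.36 in the input. The groups did not overlap in either region. Averaged over the regions, the log2 ratio of Map2 to Mapt differed by -1.28, IP minus input.

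The same difference of IP and input in the log2 ratio was -2.09 for Map2 to Ina, -1.90 to Stmn2, -1.83 to Tubb3, -1.78 to Nefl and -1.36 to Nefm. The smallest differences were against Map1b and Map1a, which also lay lower in the IP, with -0.90 for Map1b and -0.81 for Map1a. For these 7 ratios and Mapt, IP and input did not overlap in either region. The ratio to Nefh differed by -1.20 on average. In the midbrain there were 3.57, 4.85 and 2.64 Map2 counts per Nefh count in the IP against 5.95, 4.85 and 4.56 in the input, so that the groups overlapped there. For the 9 ratios the hypothalamic differences, between -2.46 for Ina and -0.97 for Map1a, were larger in size than the midbrain ones, between -1.72 for Ina and -0.51 for Nefh; this regional difference in the ratios was not tested.

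**Figure D3:**
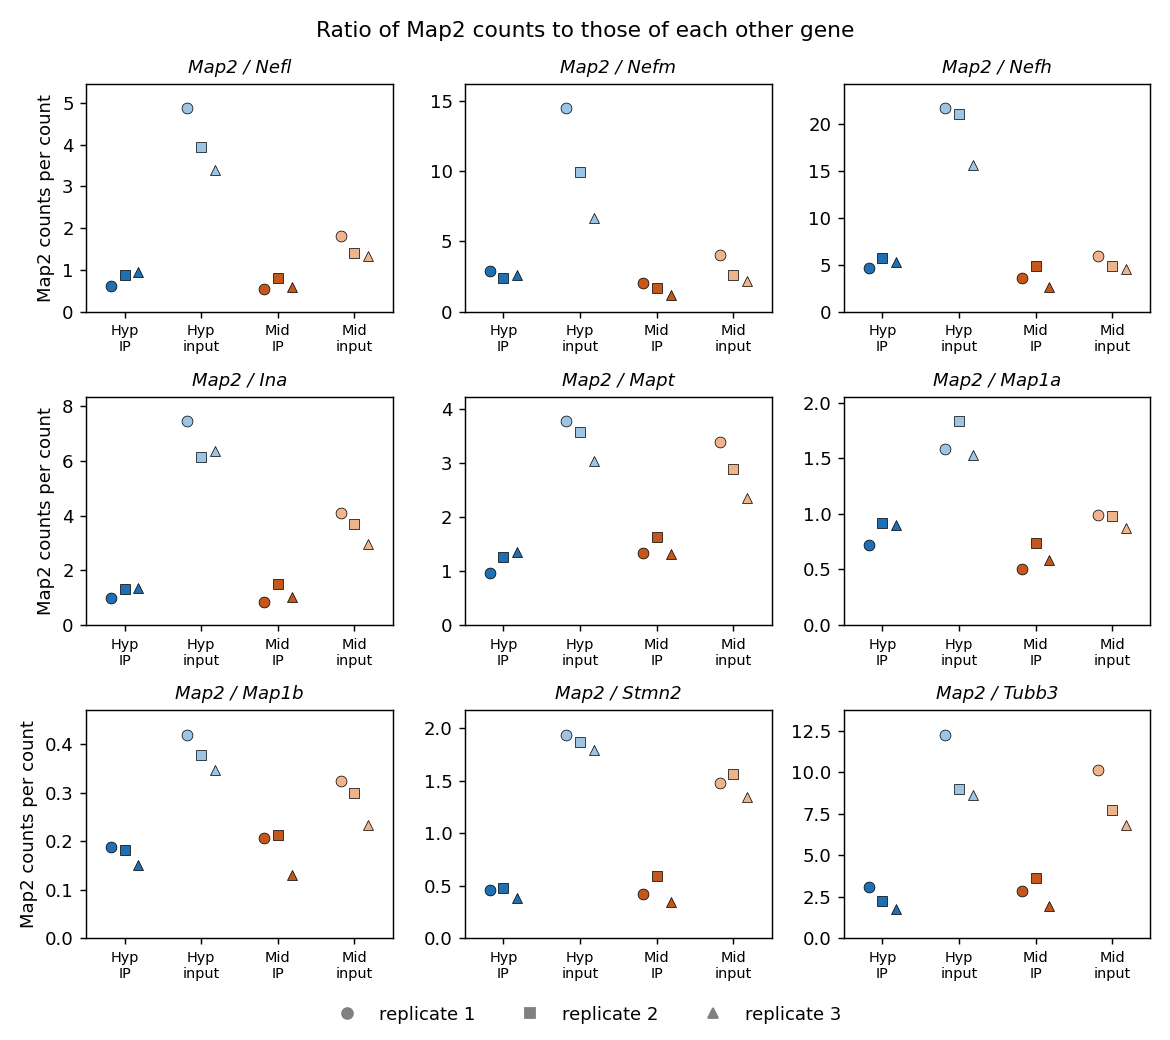
Map2 counts per count of each of the other 9 genes in every library, on linear axes from 0, with a symbol per replicate. In each panel the IP libraries lie below the inputs of their region, except for Nefh in the midbrain, where an IP and an input both stand at 4.85.

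Levels of different genes were compared as CPM per kilobase of annotated exon, and each value is a group mean over 3 libraries. In the hypothalamus IP the order ran from Stmn2 at 177 through Nefl at 161, Map1b at 159, Ina at 110, Tubb3 at 104, Mapt at 48.6, Map1a at 42.1, Nefm at 29.0 and Map2 at 26.3 to Nefh at 20.8 CPM per kilobase. Neighbours in this order overlapped in range, except that Map1b stood above Ina, Tubb3 above Mapt, Map1a above Nefm and Map2 above Nefh. In the hypothalamus input Map1b led at 203, followed by Stmn2 at 117, Nefl at 90.2, Map2 at 74.3, Tubb3 at 67.1, Map1a at 61.4, Ina at 57.0, Mapt at 47.2, Nefm at 22.4 and Nefh at 16.0 CPM per kilobase. There the neighbours from Nefl down to Ina overlapped, as did Nefm and Nefh, and the others did not.

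In the midbrain IP Nefl led at 196, before Stmn2 at 170, Map1b at 152, Ina at 121, Tubb3 at 83.9, Map1a at 58.1, Nefm at 47.1, Mapt at 39.7, Nefh at 29.8 and Map2 at 26.1 CPM per kilobase. Ina stood clear of Tubb3, Tubb3 of Map1a, and Mapt of Nefh, and all other neighbours overlapped. In the midbrain input the order was Map1b at 199, Nefl at 178, Stmn2 at 109, Ina and Map1a at 77.7 each, Tubb3 at 59.3, Nefm at 56.1, Map2 at 54.4, Nefh at 44.1 and Mapt at 41.7 CPM per kilobase. Nefl stood clear of Stmn2, Stmn2 of Ina, and Map1a of Tubb3, and all other neighbours overlapped. Map2 held the ninth place in the hypothalamus IP and the last in the midbrain IP, against the fourth and the eighth in the inputs of hypothalamus and midbrain. These places depend on the length used, since Map2 has many exons that 1 transcript does not hold together: with the longest transcript of 6258 bases, Map2 averaged 119 CPM per kilobase over the 12 libraries, against 45.3 with all exons. By the longest transcript of each gene, Map2 held place 7 in each IP, place 2 in the hypothalamus input and place 4 in the midbrain input.

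Within the neurofilament genes, shares were computed from counts per kilobase. Nefl held 49.9% ± 2.61 in the hypothalamus IP, 48.6% ± 0.381 in the hypothalamus input, 49.8% ± 1.69 in the midbrain IP and 50.0% ± 1.50 in the midbrain input (SD, n = 3 each). Its share was about the same in all 4 groups. Ina held 34.4% ± 0.523 in hypothalamus IP and 30.9% ± 3.20 in hypothalamus input, and 30.7% ± 3.19 in midbrain IP and 22.0% ± 1.60 in midbrain input (SD, n = 3 each). Nefh held 6.53% ± 0.667 in hypothalamus IP and 8.64% ± 0.812 in hypothalamus input, and 7.58% ± 1.29 in midbrain IP and 12.4% ± 0.575 in midbrain input (SD, n = 3 each).

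In the hypothalamus the Nefh share was 5.91% to 7.23% in the IP and 7.71% to 9.20% in the input, and the Ina share was 33.8% to 34.8% in the IP and 27.3% to 33.0% in the input. In the midbrain the Nefh share was 6.56% to 9.03% in the IP and 11.8% to 13.0% in the input, and the Ina share was 28.6% to 34.3% in the IP and 20.2% to 23.3% in the input. For both genes IP and input did not overlap in either region. Nefm held 9.16% ± 2.22 in hypothalamus IP and 11.8% ± 2.65 in hypothalamus input, and 11.9% ± 3.54 in midbrain IP and 15.6% ± 2.13 in midbrain input (SD, n = 3 each). With the longest transcript as length, the Nefm share was 13.6%, 17.4%, 17.5% and 22.5% in the same order of groups.

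**Figure D4:**
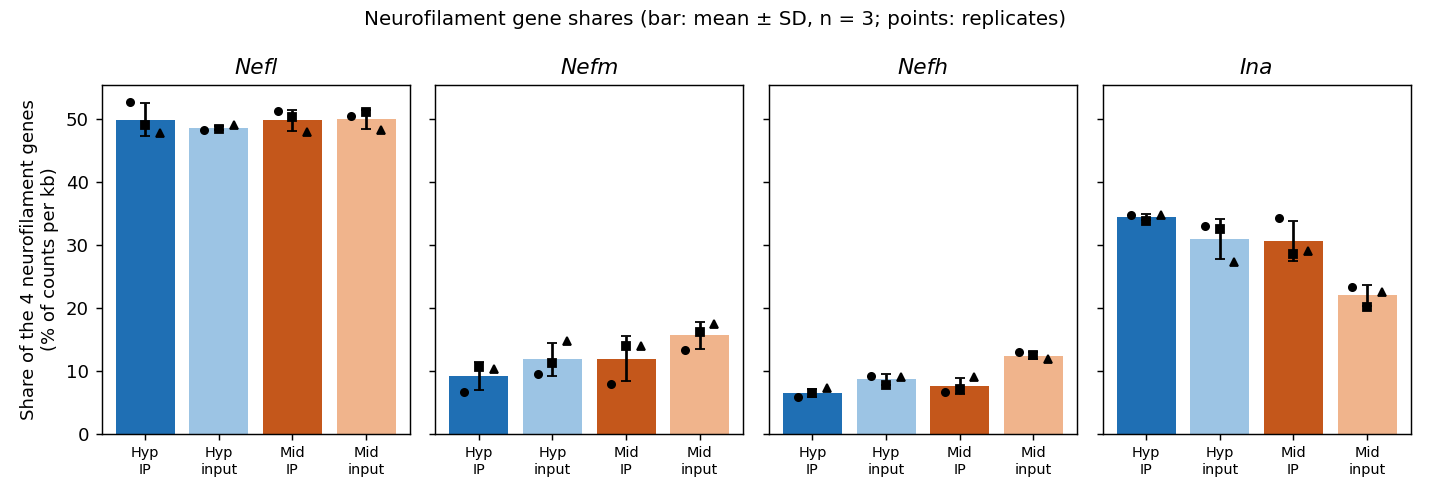
Share of Nefl, Nefm, Nefh and Ina in the summed counts per kilobase of the 4 neurofilament genes, in percent, with bars for the mean ± SD (n = 3) and points for the replicates of each group. Nefl stays between 48.6% and 50.0% in every group mean, while Nefh is lower and Ina higher in the IP of both regions, without overlap.

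The next question was whether the difference of IP and input itself differed between the regions. None of the 10 genes passed this test with edgeR, where 0.0772% of all genes did (14 genes, with 0.0607% higher and 0.0165% lower in the hypothalamus effect). At an unadjusted p under 0.05 there were 2 of the 10, Nefh and Nefl, beside 6.56% of all genes. For Nefh the differences between IP and input of the same number were 0.48, 0.53 and 0.15 in the hypothalamus and -0.61, -0.81 and -0.29 in the midbrain on the log2 scale. Every pair was above 0 in the hypothalamus and below 0 in the midbrain, and the difference of the regional effects was 0.94 (SE 0.22, unadjusted p = 0.000991, adjusted p = 0.219). DESeq2 gave 0.95 (adjusted p = 0.0304) and edgeR with the replicate block 0.96 (adjusted p = 0.0370), so that both called Nefh alone of the 10 genes, while limma's voom called none. DESeq2 called 1.17% of all genes here and the block 0.579%. For Nefl the difference was 0.69 (SE 0.21, unadjusted p = 0.0066, adjusted p = 0.408).

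For Map2 the same-numbered differences were -1.75, -1.36 and -1.41 in the hypothalamus and -1.35, -0.81 and -1.08 in the midbrain. The difference of its regional effects, -0.44 (SE 0.23, adjusted p = 0.808), did not pass, which does not show that the falls were equal.

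In the IPs compared between regions, hypothalamus against midbrain, Map1a was lower in the hypothalamus by 0.46 (SE 0.11, adjusted p = 0.0381), and the other 9 genes did not pass. Among all genes 4.26% passed, 2.05% higher and 2.21% lower, so 1 of 10 is near the background. The Map1a call was lost when only these groups were fitted (adjusted p = 0.144), with scaling by library size alone (adjusted p = 0.0726) and in 10 of 12 fits that left out a library, where the adjusted p lay between 0.035 and 0.119 over all 12. Nefl and Nefh lay wholly lower in the hypothalamus IP, with values of -0.29 (adjusted p = 0.334) and -0.52 (adjusted p = 0.0847), and Nefm had -0.70 (adjusted p = 0.223). Without replicate 1 in all groups Map1a did not pass (adjusted p = 0.0517) and Nefm did (-0.79, adjusted p = 0.0229). With the replicate block Nefm, at -0.66 (adjusted p = 0.00643), and Nefh, at -0.51 (adjusted p = 0.0204), passed as well. Map2 overlapped between the regions, at 432 ± 47.5 CPM in the hypothalamus IP and 430 ± 104 CPM in the midbrain IP (SD, n = 3 each; log2 fold change 0.01, adjusted p = 0.998).

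In the inputs, hypothalamus against midbrain, the 3 classical neurofilament genes were lower in the hypothalamus and no other gene of the 10 passed. Among all genes 1.61% passed, 1.00% higher and 0.601% lower. Nefh differed most, with 59.2, 58.1 and 74.4 CPM in the hypothalamus input against 157, 199 and 173 CPM in the midbrain input, or -1.46 on the log2 scale (SE 0.16, adjusted p = 0.00071), 2.76-fold. Nefl was lower by 0.98 (SE 0.15, adjusted p = 0.0067) and Nefm by 1.33 (SE 0.29, adjusted p = 0.0458). All hypothalamic libraries lay below all midbrain libraries for each of the 3 genes. In bulk tissue, fewer cells of a type and less RNA per cell cannot be told apart.

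The Nefm call in the inputs was lost without any of 8 libraries, for example without the hypothalamus input replicate 1 (-1.12, adjusted p = 0.143), and under other scalings. The summed oligodendrocyte markers were at 2300 to 3131 CPM in the hypothalamus input against 4459 to 5889 CPM in the midbrain input, with 3 of 8 markers lower by the test, and their part in the difference was not tested. Ina, with -0.45 (adjusted p = 0.128), and Map1a, with -0.34 (adjusted p = 0.213), also lay wholly lower in the hypothalamus, and Map2, with 0.45 (adjusted p = 0.265), lay wholly higher. So did Mapt, with 0.18 (adjusted p = 0.766), and Stmn2, with 0.10 (adjusted p = 0.922), so even small differences came without overlap. The share of all genes without overlap was not counted in any comparison. With the replicate block Ina was at -0.45 (adjusted p = 0.0383) and Map2 at 0.46 (adjusted p = 0.0450).

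**Figure D5:**
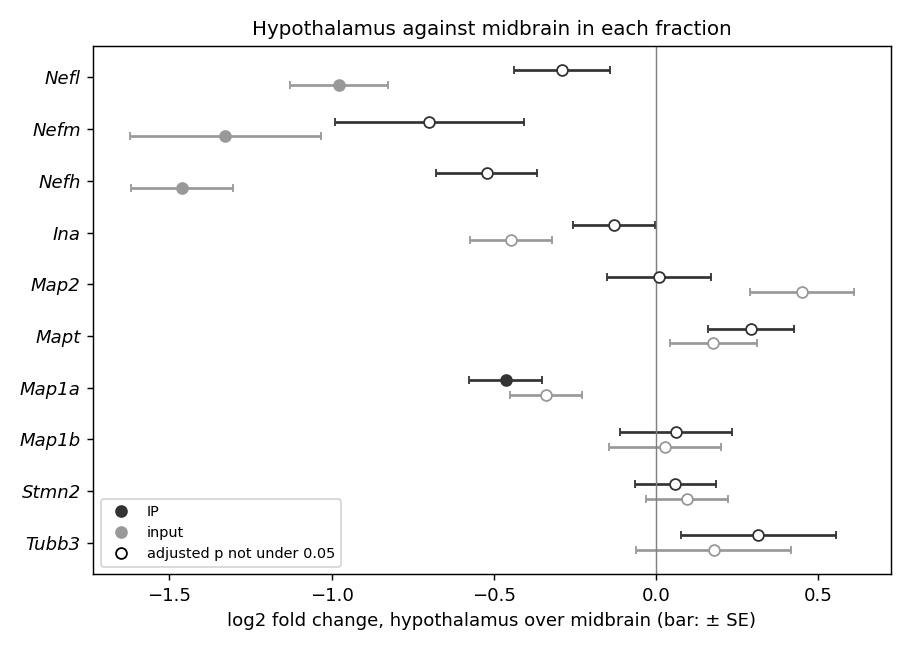
Log2 fold change of hypothalamus over midbrain with its SE for each gene, in the IP (dark) and in the input (grey), filled where the adjusted p was under 0.05. Nefl, Nefm and Nefh lie between -1.46 and -0.98 in the input and nearer to 0 in the IP, between -0.70 and -0.29.

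Other genes of the same cell structures were counted by list in the same fits. The counts of all 7 lists stand beside 14.2% of all genes higher and 19.6% lower in the hypothalamus IP. In the midbrain IP 14.0% of all genes were higher and 19.9% lower. Whether a list differed from these shares was not tested. Of 13 other tubulin genes 6 rose, 0 fell and 7 did not pass in the hypothalamus IP (median log2 fold change 0.76), and 4 rose and 9 did not pass in the midbrain IP (median 0.37). Tubb2a, a beta-tubulin, rose by 1.05 and 1.30 in the hypothalamus and the midbrain, and Tubg2, a gamma-tubulin of the microtubule nucleating complex, by 1.26 and 1.19. Of 22 other genes of microtubule-associated proteins and stathmins 12 rose, 4 fell and 6 did not pass in the hypothalamus (median 0.49), and 10 rose, 3 fell and 9 did not pass in midbrain IP (median 0.39). Stmn3, a relative of Stmn2, rose by 1.46 and 1.22, and Map1lc3a, which encodes an autophagy protein first found as a light chain of the MAP1 proteins, by 1.18 and 1.15. Dcx, the doublecortin gene of immature and migrating neurons, fell by 1.54 in the hypothalamus and by 1.62 in the midbrain.

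Of 20 genes of axonal transport motors 6 rose, 3 fell and 11 did not pass in the hypothalamus (median 0.22), and 7 rose, 4 fell and 9 did not pass in midbrain IP (median 0.04, but -0.01 with relative log expression scaling and -0.03 with scaling by library size alone). Klc2, a kinesin light chain, rose by 1.85 and 1.58, and Dynll1, a dynein light chain, by 1.05 and 1.20. Dync1h1, the dynein heavy chain, fell by 1.26 in the hypothalamus and by 0.85 in the midbrain. Kif5a, a neuronal kinesin heavy chain, fell by 0.74 in the hypothalamus and by 0.93 in the midbrain. Of 13 membrane skeleton genes listed, 11 were found by symbol in the count tables. Of these 11, 1 rose, 5 fell and 5 did not pass in each region (median -0.26 in the hypothalamus and -0.57 in the midbrain). The spectrin gene Sptbn1 fell by 1.69 in the hypothalamus and by 1.41 in the midbrain, and Sptan1, another spectrin gene, by 1.50 and 1.22. Ank2, an ankyrin gene, fell by 1.02 and 1.00.

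Of 10 other intermediate filament genes 0 rose, 5 fell and 5 did not pass in the hypothalamus, and 1 rose, 4 fell and 5 did not pass in midbrain IP. Gfap, the astrocytic filament gene, had log2 fold changes of -4.90 and -3.78, and Vim, vimentin of glia and vessels, of -2.43 and -3.11, all lower by the test. Gfap is also 1 of the 8 astrocyte markers given above. Nes (-4.175 and -5.19) and Des (-7.73 and -5.11) fell as well, from input means of at most 3.50 CPM. Prph, at means between 3.90 and 8.83 CPM in the 4 groups, was the gene that rose in the midbrain, by 1.18 (SE 0.33, adjusted p = 0.0161). In the hypothalamus its value of -0.62 (SE 0.33, adjusted p = 0.165) did not pass. Among 16 genes whose transcripts are known in dendrites, as that of Map2 is, 2 rose, 3 fell and 11 did not pass in the hypothalamus (median 0.14, but -0.03 with scaling by library size alone and -0.02 without replicate 1 in all groups), and 5 rose, 2 fell and 9 did not pass in midbrain IP (median 0.45, but 0.19 without replicate 1 in all groups). Nrgn, which encodes the calmodulin-binding protein neurogranin, rose by 1.05 and 2.31, while Eef2k, the kinase of elongation factor 2, fell by 1.00 and 1.05. Kif5a, counted among the transport motors above, is also 1 of these 16 genes and among those that fell in each region. General neuron markers numbered 14: in the hypothalamus 8 rose and 6 did not pass (median 0.58), in the midbrain 6 rose and 8 did not pass (median 0.59), and 0 fell in either region. Rbfox3, which encodes the nuclear marker NeuN, rose by 0.89 and 0.71. With the replicate block 19.5% of all genes rose in the hypothalamus and 20.3% in the midbrain, and 23.8% and 23.6% fell. All 14 neuron markers then rose in the hypothalamus and 11 in the midbrain, and 7 other tubulins rose in the midbrain. Of the dendritic list 5 rose and 4 fell in the hypothalamus, and 8 rose and 3 fell in the midbrain. With scaling by library size alone (9.00% and 10.8% of all genes higher) 5 neuron markers and 0 of the dendritic list rose in the hypothalamus, and 6 of the microtubule-associated list in the midbrain. Without replicate 1 in all groups (14.3% and 14.2% of all genes higher) 10 and 9 neuron markers and 9 and 6 other tubulins rose in the hypothalamus and the midbrain, and 2 other intermediate filament genes fell in the midbrain. No gene of these 7 lists passed the test of the regional difference.

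The 10 genes differ in exon length, between 1868 bases for Tubb3 and 16449 bases for Map2. These lengths join all annotated exons of a gene. The longest single transcript has 6258 bases for Map2, 5253 for Mapt, 11825 for Map1a and 11808 for Map1b, so Map2 is not the longest by that measure. Genes with an annotated length, 15675 of those tested (86.5%), were split by length into 5 groups of about equal size. In the longest group, from 7385 bases upward, the median log2 fold change was -0.29 in the hypothalamus and -0.20 in the midbrain. That group held Map2, Mapt, Map1a and Map1b. In the shortest group, up to 2328 bases, which held Tubb3, the medians were 0.32 and 0.27. Across these genes, which share libraries and are not independent replicates, the rank correlation of length and log2 fold change was -0.19 in the hypothalamus and -0.16 in the midbrain. In the longest group 27.7% of genes fell in the hypothalamus and 26.4% in the midbrain, against 13.3% and 14.1% in the shortest. Of the other members there, Map1a had log2 fold changes of -0.54 and -0.42 and Map1b of -0.36 and -0.39. Mapt, at 7531 bases and so near the lower bound of that group, had 0.04 and -0.07. The part of length in the fall of Map2 was not tested.

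Genes whose levels ran most like those of Map2 were ranked by the root mean square difference of log2 CPM over the 12 libraries, after centring each gene. The ranking covered 10384 genes with a mean of at least 5 CPM and no Gm, Rik or accession-type symbol. The nearest were Bbs9 at 0.161, Nfat5 at 0.164, Lcorl at 0.165, Sbf2 at 0.181 and Rsf1 at 0.184. Their hypothalamic log2 fold changes of IP over input lay between -1.39 and -1.17. Values near that of Map2 follow from the choice, since the ranking used the same libraries. The nearest of the other 9 cytoskeleton genes was Map1b at 0.518, farther than any nearest distance among the other pairs named next. The nearest to Nefl were Fam57b at 0.184, Atxn7l3 at 0.190, Iqsec1 at 0.205, Cables2 at 0.213 and Kcnab2 at 0.217. Within the 10 genes Stmn2 and Tubb3 ran closest together at 0.219, followed by Nefl and Ina at 0.269, Nefm and Nefh at 0.277, Mapt and Map1b at 0.300 and Map1a and Map1b at 0.340.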

How the data were processed

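The submitters deposited 1 table of raw read counts per gene symbol for each of the 12 libraries. The submitters' processing notes name STAR 2.0.0e, HTSeq and the build mm10. Annotation, strand setting and counting mode: not given in the sources used here. The files' 5 HTSeq summary rows and their unknown row were left out. Counts were not normalised by the authors. In R 4.3.3, edgeR 4.0.16 was used with filterByExpr (18128 of 32531 genes kept), TMM scaling and a robust quasi-likelihood F test on 4 group means over the 12 libraries, with limma 3.58.1 loaded; 5 comparisons were tested, each with Benjamini-Hochberg adjustment over all genes tested. DESeq2 1.42.0, limma's voom, other scalings, no filter, the replicate block and leaving out libraries were alternatives. The main edgeR fit was tested on simulated counts with known changes, for the hypothalamic comparison of IP and input alone. The other fits reported here were not tested in this way. CPM values are TMM-scaled, and counts rest on reads without molecular identifiers.

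The members and gene lists were chosen with earlier results of these data known. The named genes were the 10 members in every comparison, up to 4 passing genes with the largest change per list and comparison, Slc17a6, and the 5 genes nearest to Map2 and to Nefl. Prph was named besides, as the other intermediate filament gene that rose in the midbrain IP. Hcrt, Pmch, En1 and Slc6a3 were named for the check of the tissue labels. Positions and exon lengths came from GENCODE mouse release 21 and promoter letters from RefSeq on GRCm38.p6, both by symbol; all 10 members matched the annotation.

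Per the labels, an IP and the input of the same region and number ran on the same lane. Same-numbered libraries of the hypothalamus and the midbrain ran on different lanes, so lane and region cannot be told apart within a number. Deviations of same-numbered libraries from their group means correlated by 0.15 to 0.32 between hypothalamic IP and input, by 0.075 to 0.19 between midbrain IP and input, by 0.11 to 0.30 between the IPs and by 0.14 to 0.38 between the inputs. In the replicate block the numbers were treated as pairing the libraries, with the same term for both regions. The sources used here do not give whether same-numbered libraries of the hypothalamus and the midbrain share animals.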

Additional observations from a re-analysis of the deposited data

Results flagged for a closer look

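Nefh, the heavy neurofilament subunit gene, stood out because each of the 3 same-numbered pairs of IP and input was higher in the IP in the hypothalamus and each of the 3 was lower in the midbrain. The difference of the regional log2 fold changes was 0.94 (edgeR, adjusted p = 0.219 over all genes tested).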

How the results depend on the processing

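No called result of the 10 genes changed direction under the alternatives run. The calls of Map2 and Ina in the IP of both regions, of Nefl and Map1a in the hypothalamus IP, of Stmn2 in the midbrain IP and of Nefl and Nefh between the inputs were kept under every alternative. The replicate block assumes that the numbers pair libraries across both regions, which the labels do not state. With it 6 genes rose and 3 fell in the hypothalamus IP, 3 higher and 4 lower in the midbrain IP, 1 higher (Nefh) in the regional difference, 3 lower between the IPs, and 1 higher and 4 lower between the inputs. Over all genes the block called 43.4%, 43.9%, 0.579%, 11.2% and 6.05% in these 5 comparisons, more than the fit without it did. The block changed no other call among the 10 genes than those named here and above. DESeq2 gave 1 higher in the regional difference, 2 lower between the IPs and 5 lower between the inputs, where it called 1.17%, 9.93% and 4.29% of all genes. Between the IPs 0 were lower with scaling by library size alone and 0 when only the compared groups were fitted. Leaving out single libraries gave 3 to 4 higher and 2 lower in the hypothalamus IP, 2 to 3 higher and 2 to 3 lower in the midbrain IP, 0 in the regional difference, 0 to 1 lower between the IPs and 2 to 3 lower between the inputs; an alternative chosen after seeing the data, without replicate 1 in all groups, gave 4 higher and 2 lower in the hypothalamus IP and 3 higher and 4 lower in the midbrain IP. The cause of these changes was not tested. With the longest transcript as length, the mean level over 12 libraries was 60.7 CPM per kilobase for Nefm against 38.6 with all exons, 119 against 45.3 for Map2, 63.5 against 44.3 for Mapt, 239 against 178 for Map1b and 235 against 143 for Stmn2; the longer divisor lowers the level by construction. With 3 libraries per group, the SE of a log2 fold change of IP over input was between 0.11 and 0.29 for the 10 genes.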
